A study of Mus musculus with 1024 samples.

Results

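The MHC class II chain genes *H2-Aa*, *H2-Ab1* and *H2-Eb1*, the invariant chain gene *Cd74*, the exchanger genes *H2-DMa* and *H2-DMb1* and their coactivator gene *Ciita* were followed through single sorted cells of the mouse aorta. The 7 genes were chosen by name, with earlier results of these data known, out of 24422 genes in the table of read counts. A well of the sort plates holds 1 cell, and 784 of the 1024 wells passed a minimum of 20000 gene counts and 500 detected genes. Of these, 676 wells carried the label Endothelial (Cd31+Cd45-) and 108 the label DoubleNegative (Cd31-Cd45-).

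The aortas came from wild-type (WT) mice and mice that lack *amotl2* in endothelium (*amotl2* ec-/ec-, labelled KO), all 3 months old. Every well carries the same strain label, which spells the floxed *Amotl2* allele, the inducible Cre driven from *Cdh5* and the ROSA26-EYFP reporter as Amotl2flow/flow / Cdh5-RREert /ROSA26-EYFP. Per the study's methods the background was C57BL/6 and tamoxifen, which switches this Cre on, was injected in adult mice. The suspensions were depleted of Cd45+ cells with magnetic beads and then gated against Cd45 again. Each genotype was sorted in 2 preparations (sort 1 and sort 2), each from pooled mice that the labels do not name, so a sample below is all kept wells of 1 genotype, gate and sort, and each genotype has 2 samples per gate. In sort 1 WT and KO wells filled separate plates, where plate and genotype cannot be told apart, and in sort 2 they shared a plate. The Endothelial samples kept 235 wells (WT sort 1), 50 (WT sort 2), 302 (KO sort 1) and 89 (KO sort 2), with median depths of 119656, 161532, 252839 and 58190 counts per well. The DoubleNegative samples kept 42, 12, 40 and 14 wells in the same order. *EYFP*, the reporter of Cre activity, stood at 2.38 and 0.353 counts per 1000000 gene counts of the sample (summed CPM) in WT sorts 1 and 2, and at 113 and 85.5 CPM in KO sorts 1 and 2. *Amotl2* itself stood at 59.9 and 94.0 CPM in WT and at 51.9 and 45.7 CPM in KO, a log2 difference of -0.66 ± 0.32 (SE, edgeR adjusted p = 0.9995), and counts per gene do not resolve the deleted exon.

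MHC class II molecules present peptides from endocytosed protein to CD4+ T cells. An alpha and a beta chain pair in the endoplasmic reticulum, where the invariant chain encoded by *Cd74* fills the groove, and H2-DM later exchanges the last fragment of the invariant chain for a peptide. Professional antigen-presenting cells make these proteins at all times, whereas endothelial cells can be induced to make them, interferon gamma being the classical inducer. Induction runs through Ciita, a coactivator that binds no DNA itself but docks on the factors RFX, CREB and NF-Y, which sit on the X and Y boxes of the class II promoters. C57BL/6 mice carry the H-2b haplotype, in which *H2-Aa* and *H2-Ab1* encode the I-A molecule, and a defect in the *H2-Ea* gene leaves the product of *H2-Eb1* without its alpha chain.

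Of the 7 genes, 5 lie together on chromosome 17 of GRCm38, between 34119541 and 34316674, a stretch of 197 kb. In the GENCODE M21 annotation they run in the order *H2-DMa* (34119541 to 34139101, plus strand), *H2-DMb1* (34153072 to 34160230, plus), *H2-Ab1* (34257689 to 34269419, plus), *H2-Aa* (34282744 to 34287823, minus) and *H2-Eb1* (34305867 to 34316674, plus). *Ciita* lies apart on chromosome 16 (10480059 to 10528418, plus) and *Cd74* on another chromosome. The shared control region of the chain genes is shown for the 2 chain genes with a RefSeq promoter entry, because the link to Ciita runs over it. Capitals mark an X-box core, spelled GNAACT in the search, and a Y-box core, spelled ATTGG, in GRCm38 and on the strand of the gene.
*H2-Aa*, chr17:34287859-34287912: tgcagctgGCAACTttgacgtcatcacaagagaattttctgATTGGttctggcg
*H2-Eb1*, chr17:34305768-34305820: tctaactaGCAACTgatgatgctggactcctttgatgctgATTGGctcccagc
The X core began 81 bases before the *H2-Aa* start and 91 bases before the *H2-Eb1* start, and the cores were 27 and 26 bases apart. The promoter of *H2-DMb1* also held the pair on the gene's strand 27 bases apart, inside the transcript that GENCODE annotates. Neither of the 2 *H2-DMa* entries held the pair, and no entry was used for *H2-Ab1*, *Ciita* and *Cd74*. Among 32817 promoter windows of 300 bases, searched on both strands, 42.8% held the X core, 37.4% held the Y core and 0.917% held both on 1 strand with 15 to 35 bases between them. The letters and the spacing were chosen with these promoters in view, so the matches are a description.

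All 7 genes were detected in all 4 Endothelial samples, and WT sort 1 stood far above the other 3 samples for each of them. *Cd74*, the invariant chain, had a summed level of 3066 CPM in WT sort 1, 27.4 in WT sort 2, 27.7 in KO sort 1 and 59.9 in KO sort 2. *H2-Aa*, the alpha chain of I-A, had 1333, 93.2, 44.2 and 89.8 CPM in the same order. *H2-Ab1*, its beta chain, had 1167, 58.9, 37.0 and 100.2 CPM. For these 3 genes the WT samples differed more from each other than WT sort 2 did from either KO sample. *H2-Eb1*, the beta chain without a partner in this haplotype, had 558, 37.9, 15.9 and 43.1 CPM. *H2-DMa* and *H2-DMb1*, the chains of the peptide exchanger, had 273, 22.1, 7.44 and 21.3 CPM and 100.5, 16.6, 11.6 and 32.5 CPM. *Ciita*, the coactivator, was the lowest of the 7 in every sample at 23.98, 4.50, 3.51 and 1.65 CPM. The 2 WT samples differed by 112-fold for *Cd74*, by 12.4- to 19.8-fold for the chain genes and *H2-DMa*, by 6.06-fold for *H2-DMb1* and by 5.33-fold for *Ciita*. The 2 KO samples differed by 2.03- to 2.86-fold for the 6 genes other than *Ciita*, with sort 2 the higher.

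**Figure D1:**
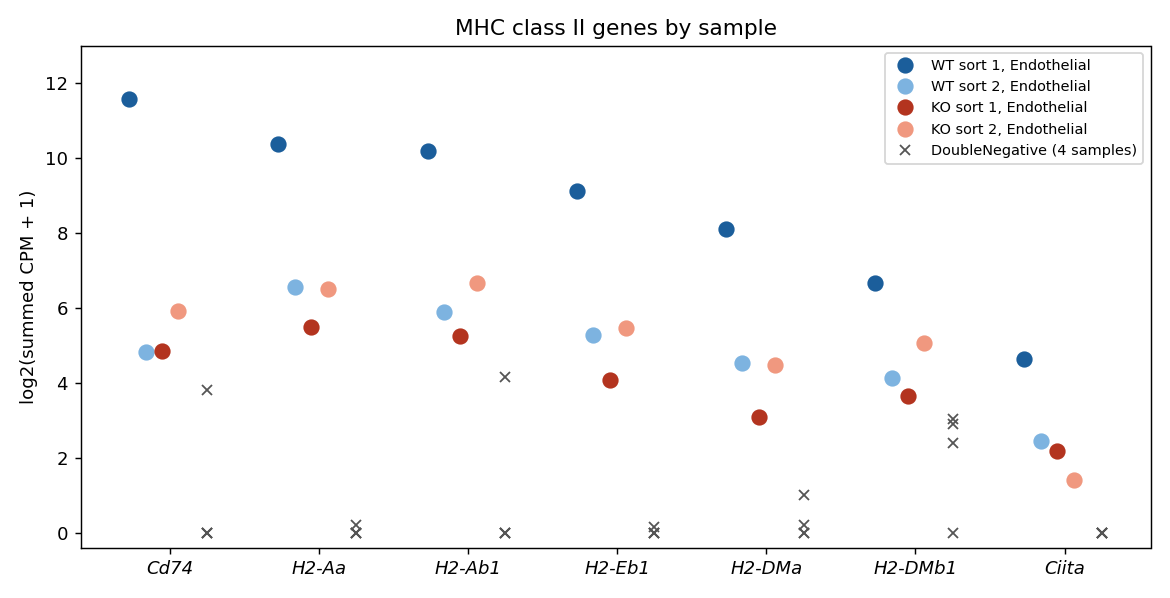
Summed level of each MHC class II gene in each sample, as log2(summed CPM + 1), with a filled point per Endothelial sample and a cross per DoubleNegative sample. WT sort 1 is the highest point for each of the 7 genes, and the crosses lie at or near 0 except for *Cd74*, *H2-Ab1* and *H2-DMb1*.

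Per kilobase of the principal transcript the order of the genes also changed between samples. *Cd74* led in WT sort 1 with 2175 CPM per kb, against 1182 for *H2-Aa*, a ratio of 1.84. In WT sort 2, KO sort 1 and KO sort 2 *Cd74* lay below *H2-Aa*, with ratios of 0.235, 0.502 and 0.533. The same held well by well, since in wells with both genes the median log2 ratio of *Cd74* to *H2-Aa* counts was 1.19 in WT sort 1 (SD 1.14, 165 wells) and -0.88, -0.87 and -0.65 in the other 3 samples (SD 1.42, 2.50 and 2.05; 10, 33 and 34 wells). The alpha and beta chain of I-A stayed closer, with *H2-Aa* at 1.23, 1.70, 1.28 and 0.963 times the per-kilobase level of *H2-Ab1* in WT sort 1, WT sort 2, KO sort 1 and KO sort 2. *H2-Ab1* was 2.14 to 3.20 times *H2-Eb1* per kilobase. *H2-DMa* was 2.30 times *H2-DMb1* in WT sort 1 and 1.13, 0.543 and 0.554 times in the other 3. *H2-DMb1* has a close paralogue, *H2-DMb2*, and reads that align to both are on neither gene, so its level is uncertain to that degree.

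The high level of WT sort 1 came from many wells and not from a few. *Cd74* had a count in 75.3% of its wells (177 of 235, 95% exact binomial interval 69.3 to 80.7), against 24% in WT sort 2 (13.1 to 38.2), 16.6% in KO sort 1 (12.5 to 21.2) and 48.3% in KO sort 2 (37.6 to 59.2). The median well of WT sort 1 held 1981 CPM of *Cd74*, 923 of *H2-Aa* and 730 of *H2-Ab1*, while the median wells of WT sort 2 and KO sort 1 held 0 of each. In KO sort 2 the median well held 30.1 CPM of *H2-Aa* and 54.9 of *H2-Ab1*. The share of the summed well levels held by the top 10% of wells was 31.9% for *Cd74* in WT sort 1, 80.5% in WT sort 2, 92.8% in KO sort 1 and 73.8% in KO sort 2. A count is a read, since Smart-seq2 as run here carries no molecular identifiers, and the intervals cover counting error only. With every well thinned to 20000 counts *Cd74* was still found in 73.2%, 18%, 12.6% and 36.0% of wells, so the order of the 4 samples was the same at matched depth.

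The class II level of a well was taken as the mean of log2(CPM + 1) over *H2-Aa*, *H2-Ab1*, *H2-Eb1* and *Cd74*. In WT sort 1 it ran from 0 to 12.18 with a median of 9.38, and 62.1% of wells lay at 8 or above, 20.4% between 1 and 8 and 17.4% below 1. In WT sort 2 the median was 1.20 and the highest well 8.74, with 6.00% of wells at 8 or above. KO sort 1 had a median of 0.00 and a highest well of 9.97, with 69.5% of wells below 1 and 1.66% at 8 or above. KO sort 2 had a median of 3.35 and a highest well of 10.32, with 65.2% of wells between 1 and 8 and 7.87% at 8 or above. Wells as high as the middle of WT sort 1 therefore occurred in KO sort 1 and KO sort 2, in small numbers, and were not seen among the 50 wells of WT sort 2. The level hardly followed depth, with Spearman correlations over wells of 0.13, 0.08, 0.06 and -0.03.

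**Figure D2:**
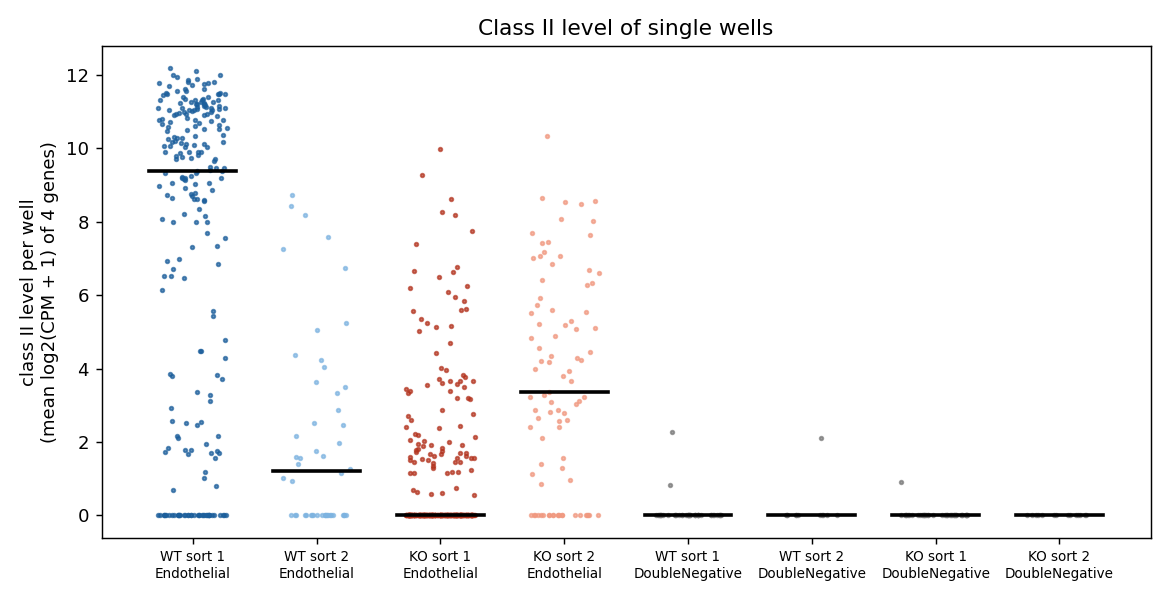
Class II level of each kept well (mean of log2(CPM + 1) over *H2-Aa*, *H2-Ab1*, *H2-Eb1* and *Cd74*) by sample, with a bar at the sample's median. WT sort 1 has its median at 9.38 and a second group of wells near 0, KO sort 2 is spread around 3.35, and nearly all DoubleNegative wells lie at 0.

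The comparison of the gates asks how much class II RNA lay in wells not labelled Endothelial, and these held almost none. Over the 108 DoubleNegative wells of 4 samples, *H2-Aa* and *H2-Eb1* had 1 count each, *H2-DMa* had 2 counts in 2 wells and *Ciita* had 0. *Cd74* had 13 counts, all in 1 well of WT sort 2 that also held 480 *Pecam1* and 38 *Cdh5* counts, the genes of Cd31 and VE-cadherin. *H2-Ab1* had 112 counts, all in 1 well of WT sort 1 with no *Pecam1*, *Cdh5* or *Acta2* count. *H2-DMb1* was the exception with 94 counts in 9 wells, 8.33% of them (3.88 to 15.2), and was the sole class II gene in 7 of the 13 DoubleNegative wells with any of the 7 genes.

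Over the summed counts of the 4 samples of each gate, *H2-Aa* was 6893-fold higher in Endothelial wells (95% counting interval 1237 to 272269), *H2-Eb1* 2862-fold (514 to 113037) and *H2-DMa* 701-fold (194 to 5790). *Cd74* was 1127-fold higher (659 to 2116) and *H2-Ab1* 53.6-fold (44.6 to 65.2). The DoubleNegative counts of *Cd74* and of *H2-Ab1* lay in 1 well each. Their intervals treat reads as independent and do not cover the spread between cells. *Ciita*, with 1356 counts in Endothelial wells, was 52.6-fold higher against an assumed floor of 3 counts over the gate, with a lower 95% counting limit of 42.7. Its 0 of 108 DoubleNegative wells had an exact 95% upper limit of 3.36%, and a floor of 3 wells would be a share of 2.78%. *H2-DMb1* was 6.90-fold higher (5.63 to 8.56). WT sort 1 carries much of these sums, and without it the ratios fell to 942 for *H2-Aa*, 362 for *H2-Eb1*, 89.1 for *H2-DMa*, 41.6 for *Cd74*, 7.04 for *H2-Ab1* and 2.61 for *H2-DMb1*. The ratio of *Ciita* to the same floor fell to 20.8, with a lower limit of 16.8. In edgeR's quasi-likelihood test of 4 Endothelial against 4 DoubleNegative samples, 6 of the 7 genes were called higher in Endothelial wells, with adjusted p of 0.0012 for *H2-Aa*, 0.0024 for *H2-Eb1*, 0.0046 for *H2-DMa*, 0.0101 for *H2-Ab1*, 0.0188 for *Ciita* and 0.0242 for *Cd74*. *H2-DMb1* missed the threshold of 0.05 (log2 difference 2.83 ± 0.89 SE, adjusted p = 0.0560), and was called in wells thinned to 20000 counts (edgeR adjusted p = 0.0302), without the filter on low counts (6.8e-05) and by DESeq2 (0.0057). *Ciita* missed the threshold in wells of at least 100000 counts (edgeR adjusted p = 0.0549) and did not pass the filter in thinned wells. Of 12729 genes tested, 1246 (9.79%) were called higher in Endothelial wells and 1177 (9.25%) lower. *Ciita*, *H2-Aa*, *H2-Eb1* and *H2-DMa*, with 0 to 2 counts over the DoubleNegative wells, passed the filter on low counts through the Endothelial samples alone. *Cd74* and *H2-Ab1*, with counts in a single DoubleNegative sample each, also needed the Endothelial samples to pass it. The direction of these 6 calls was thus fixed in advance or nearly so. The 7 genes were also chosen with earlier results of these data known, so the calls are a description. With the cell suspension as a replicate block, which pairs the gates of 1 genotype and sort, *H2-DMb1* was called in edgeR (adjusted p = 0.0192) and *Cd74* (0.106) and *Ciita* (0.0594) were not. Leaving out WT sort 1 of the Endothelial samples also ended the calls of *Cd74* and *Ciita* and kept those of *H2-Aa*, *H2-Ab1*, *H2-Eb1* and *H2-DMa*. The calls of *H2-Aa*, *H2-Eb1* and *H2-DMa* held with each of the 8 samples left out in turn. *Cd74* lost its call also without DoubleNegative KO sort 1 or sort 2, *Ciita* without Endothelial or DoubleNegative KO sort 1 and *H2-Ab1* without DoubleNegative KO sort 1, while *H2-DMb1* was called without Endothelial WT sort 2 or DoubleNegative WT sort 1.

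The 3 chain genes were found together more often than their separate shares would give. Of the 235 wells of WT sort 1, 154 held a count of all 3 of *H2-Aa*, *H2-Ab1* and *H2-Eb1* (65.5%, 95% exact interval 59.1 to 71.6), 17 held 2 of them, 19 held 1 and 45 held none. WT sort 2 had 8 wells with all 3 (16%, 7.17 to 29.1), 9 with 2, 10 with 1 and 23 with none. KO sort 1 had 15 wells with all 3 (4.97%, 2.81 to 8.06), 23 with 2, 50 with 1 and 214 with none. KO sort 2 had 31 wells with all 3 (34.8%, 25.04 to 45.7), 25 with 2, 9 with 1 and 24 with none. In WT sort 1 the wells were split between all and none, and in the other 3 samples partial sets were more common than full ones. The chain missing from wells with 2 chains was *H2-Eb1*, the lowest of the 3, in 12 of 17, 5 of 9, 14 of 23 and 13 of 25 wells.

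**Figure D3:**
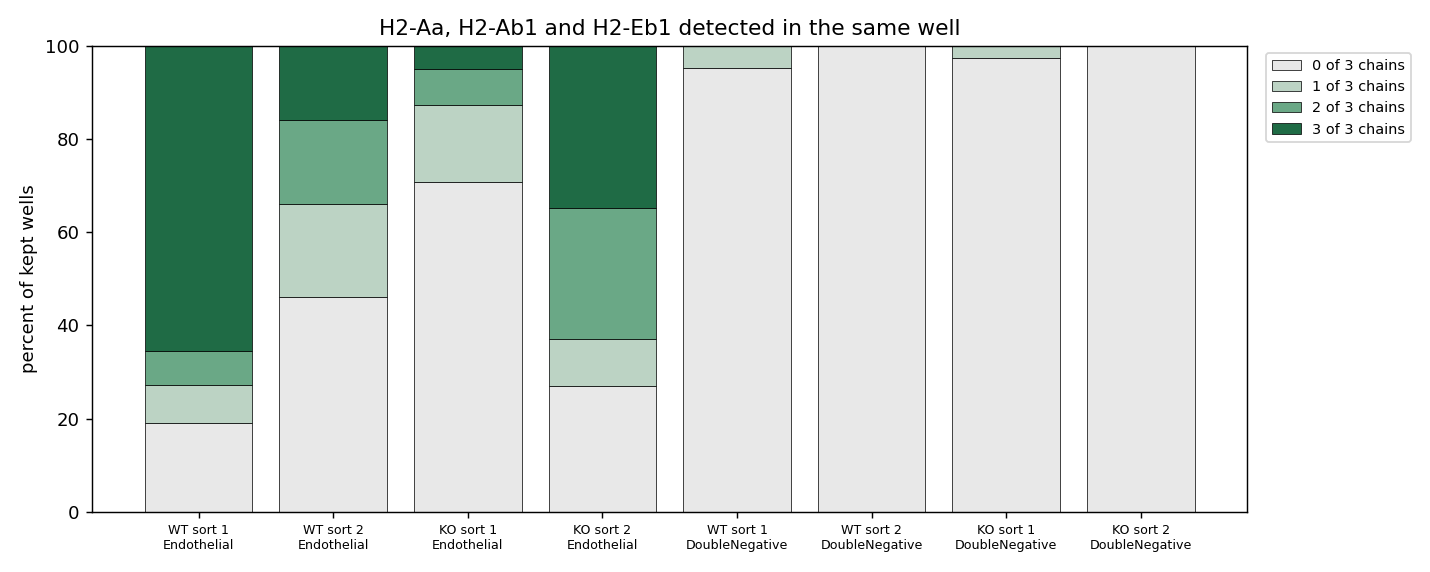
Percent of kept wells with a count of 0, 1, 2 or 3 of the chain genes *H2-Aa*, *H2-Ab1* and *H2-Eb1*, by sample. Wells with all 3 chains make up 65.5% of WT sort 1, 16% of WT sort 2, 4.97% of KO sort 1 and 34.8% of KO sort 2.

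Most wells with all 3 chains also held the invariant chain, and in the samples other than KO sort 1 most held both chains of the exchanger. In WT sort 1, *Cd74* was found in 98.7% of the 154 wells with all 3 chains and in 13.3% of the 45 wells with none. In WT sort 2 it was in 75% of 8 against 4.35% of 23, in KO sort 1 in 86.7% of 15 against 4.67% of 214 and in KO sort 2 in 80.6% of 31 against 8.33% of 24. Both H2-DM chains were found in 74.0%, 62.5%, 20% and 51.6% of the wells with all 3 chains, and in 0%, 0%, 0.935% and 0% of those with none.

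For the pairs, the wells with both genes were set against the number that the 2 separate shares would give in the same sample. In WT sort 1, KO sort 1 and KO sort 2 all 21 pairs of the 7 genes were above that number, and in WT sort 2, 19 of 21. Counting intervals of observed over expected lay above 1 for every pair in WT sort 1. In both sort 2 samples they included 1 for each pair with *Ciita* and for some pairs without it. *Cd74* and *Ciita* in KO sort 2 shared 4 wells against 2.90 expected (0.380 to 3.41). In KO sort 1 just the *Ciita* pairs with *Cd74* and *H2-Aa* lay clear of 1 among those with *Ciita*. Pairs of other genes were not compared. For *H2-Aa* and *H2-Ab1*, 166 wells of WT sort 1 held both where 132.6 were expected, 13 against 7.20 in WT sort 2, 29 against 9.99 in KO sort 1 and 44 against 33.3 in KO sort 2. Given *H2-Aa*, *H2-Ab1* was found in 93.3%, 65.0%, 50% and 84.6% of wells, and without *H2-Aa* in 15.8%, 16.7%, 9.43% and 35.1%. The ratio of observed to expected is limited by how common the genes are, so its low values in WT sort 1 (1.23 to 1.499) and high values in KO sort 1 (2.42 to 3.75) do not order the strength of the link. In ranks, the link was closest in WT sort 1, where the Spearman correlation over wells ran from 0.65 to 0.90 among the 15 pairs without *Ciita*, with medians of 0.74 there, 0.51 in WT sort 2, 0.30 in KO sort 1 and 0.51 in KO sort 2. Wells of a sample share its plate and preparation, and most correlations rest on many tied values at 0. Thinned to 20000 counts per well, all 15 pairs without *Ciita* stayed above the expected number in each of the 4 samples. The 6 pairs with *Ciita* did so too except in WT sort 2, where 1 of 6 did against 4 of 6 as sequenced. In thinned wells the counting intervals included 1 for each *Ciita* pair outside WT sort 1 and for some within it. *Cd74* and *Ciita* in KO sort 1 then shared 1 well against 0.755 expected.

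**Figure D4:**
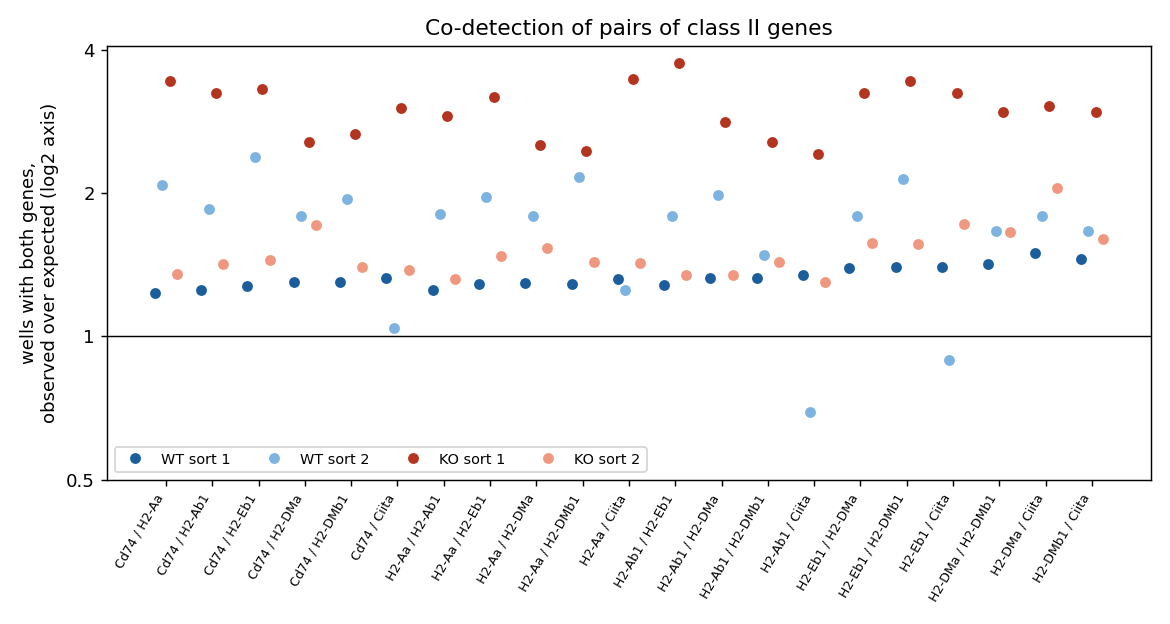
Number of Endothelial wells with a count of both genes of a pair over the number expected from the separate shares, for 21 pairs in 4 samples, on a log2 axis with a line at 1. The pairs below 1 are *Ciita* with *H2-Ab1* and with *H2-Eb1* in WT sort 2, which had 4 wells with *Ciita*.

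*Ciita* was detected in few wells, and in WT sort 1 these were wells with high class II levels. It had a count in 53 of 235 wells of WT sort 1 (22.6%, 17.4 to 28.4), 4 of 50 in WT sort 2 (8%, 2.223 to 19.2), 12 of 302 in KO sort 1 (3.97%, 2.07 to 6.84) and 6 of 89 in KO sort 2 (6.74%, 2.51 to 14.1). In WT sort 1 the class II level had a median of 10.51 in wells with *Ciita* and 8.63 in wells without, and the lowest of the 53 wells stood at 6.53. All 3 chains were found in 51 of these 53 wells (96.2%, 87.0 to 99.5) and in 103 of the 182 others (56.6%, 49.1 to 63.9). None of the 39 WT sort 1 wells without a count of *Cd74* and the chain genes had *Ciita*, which allows a share of up to 7.69%. The other direction was weaker, since 103 of the 154 wells with all 3 chains had no *Ciita* count. Median depth was 168396 counts in the wells with *Ciita* and 116908 in those without. At 20000 counts per well, the difference of the medians was 1.81 against 1.87 as sequenced.

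In the other samples *Ciita* wells were few and their class II levels ran over nearly the whole range. In KO sort 2, 5 of the 6 *Ciita* wells held all 3 chains and the sixth held none of the other 6 genes, with medians of 6.69 with and 3.22 without *Ciita*. In KO sort 1 just 1 of the 12 *Ciita* wells held all 3 chains, and the medians were 3.08 and 0.00. The KO sort 1 well with most *Ciita*, 125 counts, held 74 *H2-Aa*, 92 *H2-DMa* and 36 *H2-DMb1* counts. It had no *Cd74*, *H2-Ab1* or *H2-Eb1* count. The 4 *Ciita* wells of WT sort 2 had class II levels of 8.74, 1.56, 0.00 and 0.00, a median of 0.78 against 1.20 without *Ciita*, and this difference changed direction at 20000 counts per well, where 1 *Ciita* well was left. *Ciita* counts and class II levels had Spearman correlations over wells of 0.33, 0.00, 0.27 and 0.21 in WT sort 1, WT sort 2, KO sort 1 and KO sort 2. With medians of 9 counts or fewer in its wells outside WT sort 2, *Ciita* is near the limit of detection, and wells without a count cannot be taken as wells without the transcript.

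**Figure D5:**
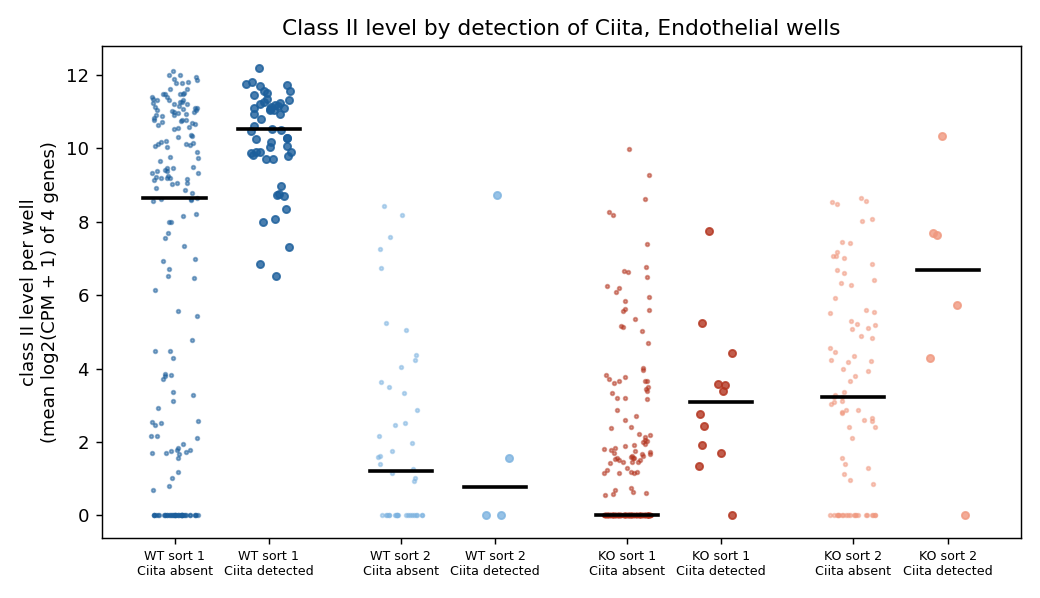
Class II level (mean of log2(CPM + 1) over 4 genes) of Endothelial wells without and with a *Ciita* count, by sample, with bars at the medians. The 53 wells with *Ciita* in WT sort 1 all lie at 6.53 or above, while in the other 3 samples some lie at 0.

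Between the genotypes the 2 sorts did not give the same answer. In sort 1 all 7 genes were lower in KO, with log2 differences in summed CPM of -6.79 for *Cd74*, -5.20 to -4.92 for *H2-Aa*, *H2-Ab1*, *H2-Eb1* and *H2-DMa*, -3.11 for *H2-DMb1* and -2.77 for *Ciita*. In sort 2, where both genotypes shared a plate, *Cd74* was higher in KO by 1.13, *H2-DMb1* by 0.97, *H2-Ab1* by 0.77 and *H2-Eb1* by 0.18, *H2-Aa* and *H2-DMa* differed by -0.05 each, and *Ciita* by -1.45. With every well thinned to 20000 counts all 7 genes were higher in KO in sort 2, *H2-Aa* by 0.58, *H2-DMa* by 0.61 and *Ciita* by 0.98. Thinning gives each well the same weight. It left *Ciita* in 1 well of WT sort 2 and 3 of KO sort 2, and *H2-DMa* in 5 and 22. Shares of wells with all 3 chains also went opposite ways in the sorts. They fell from 65.5% in WT to 4.97% in KO in sort 1, and rose from 16% to 34.8% in sort 2. With 1 sample per genotype in each sort the difference between the sorts was not tested. In edgeR's test of 2 KO against 2 WT samples, 0 of the 7 genes and 0 of 12702 genes (0%) were called. The log2 differences were -5.09 ± 1.52 (SE) for *Cd74*, -3.36 ± 0.95 for *H2-Aa*, -3.10 ± 1.05 for *H2-Ab1*, -3.29 ± 0.99 for *H2-Eb1*, -3.34 ± 0.97 for *H2-DMa*, -1.37 ± 0.76 for *H2-DMb1* and -2.45 ± 0.88 for *Ciita*, each with an adjusted p of 0.9995. At an unadjusted p under 0.05 there were 6 of the 7 and 468 genes (3.68%), and DESeq2 called 55 genes and 0 of the 7. With the sort as a replicate block the differences shrank to between -1.11 and -2.88, and 0 of the 7 were called.

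The genotype difference rested on WT sort 1. Without it *Cd74* was 0.68, *H2-DMb1* 0.41 and *H2-Ab1* 0.23 higher in KO, with differences of -0.83 to -0.36 for the other 4 genes, and edgeR called none of the 7 and 311 of 12612 genes (2.47%). Without WT sort 2 edgeR called all 7 lower in KO, where 159 of 13859 genes (1.15%) were called lower, and without KO sort 2 it called 5 of them, all but *H2-DMb1* and *Ciita*, where 28 of 13883 (0.202%) were. These fits hold a lone sample of a genotype, which is assumed to vary like the other. The share of wells with all 3 chains was 40.8% ± 35 in WT and 19.9% ± 21.1 in KO (SD, n = 2 samples each, exact permutation test, two-sided p = 0.667, where the smallest possible p is 0.333). The genotype difference in Endothelial wells was also set against that in DoubleNegative wells, and in this edgeR interaction test 0 of 12729 genes (0%) were called, with 657 genes at an unadjusted p under 0.05 and 53 called by DESeq2. For the class II genes this test was void, since they had 0 to 112 counts in all DoubleNegative wells, and the SE of the log2 difference was 1.69 for *H2-DMb1* and 4.22 or more for the other 6. Within the KO samples, wells with and without an *EYFP* count had median class II levels of 0.00 and 0.00 in sort 1 (231 and 71 wells) and of 3.86 and 0.00 in sort 2 (76 and 13 wells), with all 3 chains in 3.90% and 8.45% of wells in sort 1 and 38.2% and 15.4% in sort 2. Their median depths were 276946 and 218102 counts in sort 1 and 64002 and 37368 in sort 2, and the part of depth was not tested.

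Around the 7 genes, other genes of the pathway were read in the same samples. Of 29 names listed as pathway genes, 16 passed the filter on low counts in the gate comparison, and edgeR called 2 of them (12.5%) higher and 0 lower in Endothelial wells, a share near the 9.79% of all genes called higher. The 2 were *Cd40* (log2 difference 7.80 ± 1.27 SE, adjusted p = 0.0049), a costimulatory receptor, and *Lgmn* (1.34 ± 0.30, adjusted p = 0.0159), an endosomal protease. *Lgmn* lost its call without Endothelial KO sort 1 (edgeR adjusted p = 0.0664) or WT sort 2 (0.0550). The median log2 difference of the 16 genes was 0.69, against 0.15 over all genes tested. Between the genotypes 17 were tested and 0 were called, with a median of -0.31 against 0.00 over all genes, and the lowest p was that of *Cd274*, the inhibitory ligand PD-L1 (-1.42 ± 0.43, edgeR adjusted p = 0.9995). *Cd274* stood at 80.5 and 34.6 CPM in WT sorts 1 and 2 and at 25.3 and 17.5 CPM in KO sorts 1 and 2.

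The factors that sit on the X and Y boxes were read in every Endothelial sample, *Rfx5* at 9.97 to 15.9 CPM, *Rfxank* at 17.1 to 24.7, *Rfxap* at 1.25 to 5.56, *Nfya* at 3.19 to 6.26, *Nfyb* at 48.6 to 74.1, *Nfyc* at 9.33 to 17.4 and *Creb1* at 50.8 to 72.0. None of these 7 passed the test in either comparison. WT sort 1 was the highest of the 4 samples for *Rfxank*, *Rfxap*, *Nfya* and *Nfyc*, the last at 17.4 against 9.33 to 13.3 CPM. *Irf1*, which carries the interferon signal to *Ciita*, was highest in WT sort 1, at 371 against 155 to 192 CPM. Other parts were missing at this depth. The costimulatory ligand *Cd86*, the lysosomal protease *Ctss*, the ubiquitin ligase *March1*, *Pdcd1lg2*, *H2-Oa* and *H2-Ea-ps* had 0 counts in the 676 Endothelial wells, and *Cd80* had at most 0.706 CPM in a sample. *H2-Ob*, *H2-DMb2* and *H2-Eb2* reached at most 1.28 CPM. The protease *Ctsl*, on the other hand, was at 620 to 667 CPM in the 4 samples.

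Markers of leukocytes were read beside the class II genes, since dendritic cells, macrophages and B cells make class II proteins. *Ptprc*, the gene of Cd45, had 1 count in 676 Endothelial wells and 0 in the 208 wells with all 3 chains. All 10 endothelial markers had counts in Endothelial wells. Of these 208 wells 100% held *Pecam1*, the gene of the Cd31 used in the sort, and 96.2% held *Cdh5*. The shares were 99.7% and 91.3% of the 287 wells without a count of *Cd74* and the chain genes. *Kdr*, on the same list, was found in 5.29% of the 208 and 9.41% of the 287 wells. The general leukocyte list (4 genes) summed to 2.72 to 11.5 CPM in the Endothelial samples, with *Laptm5* at 11.5, 4.32, 7.75 and 0.944 CPM in WT sort 1, WT sort 2, KO sort 1 and KO sort 2, and was found in 1.44% of wells with all 3 chains against 8.71% of wells with none. Of 10 macrophage or monocyte markers 5 had counts, with *Itgam*, *Lyz2*, *C1qa*, *C1qb* and *C1qc* at 0 and a sum of 0.300 to 3.26 CPM. Of 6 dendritic cell markers *Itgax*, *Flt3* and *Cd209a* were at 0. The others, *Xcr1*, *Zbtb46* and *Clec9a*, summed to 17.2 to 30.4 CPM, found in 31.2% of wells with all 3 chains and 29.3% of those with none. In the gate comparison edgeR called *Clec9a* higher in Endothelial wells (adjusted p = 0.0091), and not *Zbtb46* (0.652) or *Xcr1*. It also called *Laptm5* higher (adjusted p = 0.0258), whose list had no count in DoubleNegative wells. B cell markers summed to 0.265 to 1.10 CPM with *Cd79b* and *Ms4a1* at 0, and of 4 T cell markers 1 had counts, summing to at most 0.0105 CPM. The 4 lymphatic endothelial markers summed to 21.5 to 70.4 CPM and were highest in KO sort 1, the lowest sample for the chain genes, *H2-DMa* and *H2-DMb1*. Smooth muscle markers summed to 710 to 1592 CPM and fibroblast markers to 473 to 753 CPM in Endothelial samples, also highest in KO sort 1, against 20669 to 52704 and 3788 to 37809 CPM in DoubleNegative samples.

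Among 8586 genes with a count in at least 10% of the wells of every Endothelial sample, the genes most like the class II level over wells were *H2-K1*, *H2-D1*, *Cyp1b1*, *B2m* and *Iigp1*. Likeness was the mean over the 4 samples of the Spearman correlation within a sample, which was 0.40, 0.39, 0.35, 0.33 and 0.31. *H2-K1* and *H2-D1* encode MHC class I heavy chains and *B2m* the light chain they share, *Iigp1* encodes an interferon-inducible GTPase and *Cyp1b1* a cytochrome P450. *H2-K1* followed the class II level with 0.70 in WT sort 1, 0.34 in WT sort 2, 0.24 in KO sort 1 and 0.30 in KO sort 2. Its summed level varied much less than theirs, with 4403, 2319, 2386 and 2962 CPM in the same order. *Iigp1* stood at 1358, 391, 233 and 304 CPM, again highest in WT sort 1. For *Ciita* the same search gave *Mpnd*, *Spryd3*, *Prmt3*, *Irgm2* and *Gm10400* with means of 0.20 to 0.23, too weak in such sparse counts to single out a gene. *H2-K1* and *H2-D1* are near copies of each other, and the counting could split their reads.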

How the data were processed

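Single aortic cells were sorted into plates and sequenced with Smart-seq2. The authors aligned the reads to GRCm38 with STAR 2.7.7a, with spike-in and *EYFP* sequences added, removed duplicates with Picard 2.22.0 and ran HTSeq 0.9.1 for reads per gene, per the paper's methods and the submitters' processing notes, and they deposited whole-number counts without normalization. The annotation release is not given in the sources used here. Of all counts, 51.9% were on genes, 1.25% on spike-ins and 46.9% on summary lines (32.0% aligned to several places), and only gene rows entered library sizes and tests.

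Wells with at least 20000 gene counts and 500 genes were grouped by the labels' genotype, gate and sort. No doublet caller was run on the wells, which were sorted through a singlet gate. Counts were summed per sample (926398 to 94881185 counts) and entered a quasi-likelihood fit in edgeR 4.0.16 under R 4.3.3 (filterByExpr, TMM factors, glmQLFit), with Benjamini-Hochberg adjustment and a threshold of 0.05. DESeq2 1.42.0 was the alternative. Both were tested on simulated data. The labels give a sort number with each genotype and do not say whether WT and KO of the same number were prepared together. The sort was fitted as a replicate block as an alternative to the unpaired main test. Same-sort deviations from the group means correlated by 0.142 over 12702 genes. Because the labels name no mouse, p-values measure the spread between preparations. CPM is per 1000000 gene counts, of the sample for summed levels and of the well for levels of wells, with a pseudocount of 1 on the log2 scale. Detection means at least 1 count, wells were thinned with a fixed seed, and exact (Clopper-Pearson) 95% intervals and floors of 3 counts cover counting error only. No 2 kept wells had identical counts.

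Named were the 7 class II genes, *Amotl2* and *EYFP*, called pathway genes (or that with the lowest p) and those at or near 0, marker genes, and the 5 genes most like the class II level and the 5 most like *Ciita*. *Irf1* and the promoter letters were added after their values were seen. The members and lists were chosen with earlier results of these data known. Sequences are RefSeq promoter windows of GRCm38.p6, and lengths are those of principal transcripts in GENCODE M21. numpy 2.4.6, pandas 2.3.3 and scipy 1.17.1 gave the other values.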

Additional observations from a re-analysis of the deposited data

Results flagged for a closer look

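The KO minus WT difference pointed in opposite directions in the 2 sorts for 4 of the 7 class II genes at the depth sequenced and for the share of wells with all 3 chains. On the log2 scale of summed CPM it was -6.79 in sort 1 and 1.13 in sort 2 for *Cd74*, and -4.98 and 0.77 for *H2-Ab1*. It was -5.13 and 0.18 for *H2-Eb1*, and -3.11 and 0.97 for *H2-DMb1*. With wells thinned to 20000 counts all 7 genes were higher in KO in sort 2, *H2-Aa* by 0.58, *H2-DMa* by 0.61 and *Ciita* by 0.98. Thinning gives each well the same weight, and it left *Ciita* in 1 well of WT sort 2 and 3 of KO sort 2. For the share of wells with *H2-Aa*, *H2-Ab1* and *H2-Eb1* together the KO minus WT difference was -60.6 percentage points in sort 1 and 18.8 in sort 2. Each sort has 1 sample per genotype, so the difference between the sorts was not tested. In sort 1 the genotypes were on separate plates and cannot be told apart from them, and in sort 2 they shared a plate.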

How the results depend on the processing

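Over the KO against WT test the number of genes called was 0, and it was 1 with RLE factors, 1 with the sort as a replicate block, 1 in wells with a *Cdh5* count, 8 in thinned wells, 55 with DESeq2 and 104 without the filter on low counts, where 6 of the class II genes were called. Leaving out each sample gave 5 to 311 calls. For single genes these fits changed the direction without WT sort 1 alone, where the log2 differences became 0.68 for *Cd74* (range over the samples left out -6.08 to 0.68), 0.23 for *H2-Ab1* (-4.12 to 0.23) and 0.41 for *H2-DMb1* (-2.41 to 0.41). The gate comparison called 2423 genes and 1355 to 1496 when an Endothelial sample was left out (1355 to 2542 over all 8 samples left out in turn), and 1779 with the suspension as a replicate block. The test of the difference between gates called 0 genes, 163 without the filter, where *H2-Ab1* was called (edgeR adjusted p = 0.0338), 53 with DESeq2, and 0 to 42 with a sample left out, the 42 without DoubleNegative WT sort 1.

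The share of wells with all 3 chains was 55.7% in WT sort 1 at 10 counts per gene, and in KO sort 2 it was 23.6% at 20000 counts per well, 23.6% at 3 counts and 7.87% at 10 counts. The difference of class II level by *Ciita* detection in WT sort 2 was 1.81 in thinned wells and 0.41 at 3 counts, against -0.42. In KO sort 1 it was 1.99 thinned, 2.42 at 3 counts and 1.45 with a pseudocount of 10 CPM, against 3.08. In KO sort 2 it was 5.09 thinned, 1.93 in wells of at least 100000 counts, 5.72 at 3 counts and 1.92 with 10 CPM, against 3.46. Within sort 2, chosen after seeing the data, the KO minus WT log2 ratio was 0.58 for *H2-Aa*, 0.61 for *H2-DMa* and 0.98 for *Ciita* in thinned wells, and -0.43 for *H2-Eb1* in wells of at least 100000 counts. The causes were not tested. Of 371 alternative values, 285 counted as the same as the main value. For fits of single genes this meant the same direction and side of the threshold. Numbers of genes called were judged by their distance from the main value, and ratios within a sort by direction and distance. With 4 to 12 *Ciita* wells in 3 of the samples and 2 preparations per genotype, depth and sample number limit what these data can show about *Ciita* and about genotype.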
